A study of Mus musculus with 6 samples.

Results

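The respiratory chain passes electrons from fuel to oxygen in the inner mitochondrial membrane, and ATP synthase uses the proton gradient so formed to make ATP. Complex II takes electrons from succinate, complex III passes them from ubiquinol to cytochrome c, complex IV hands them to oxygen, and complex V is the ATP synthase. Complex II is encoded wholly in the nucleus, whereas III, IV and V also hold a few mitochondrially encoded subunits. Several subunits of complexes IV and V come as paralogs that differ between tissues, such as the heart and skeletal muscle forms of COX6A, COX7A and COX8. Hair cells and the stria vascularis of the cochlea depend on oxidative metabolism.

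The nuclear subunit genes of complexes II to V were taken as all protein-coding genes of GENCODE M21 whose symbol is Sdha, Sdhb, Sdhc or Sdhd, or begins with Uqcr, Cox4 to Cox8 or Atp5. These were 48 genes of 25823 in the table, with 4 in complex II, 8 in complex III, 18 in complex IV and 18 in complex V. They carry 47 symbols, because Atp5o has a second gene record. The symbols also take in Atp5s, a coupling factor that is not a core subunit, and leave out Cyc1 (cytochrome c1) and Ndufa4, which are described with the partner genes. Cochlear RNA of C57BL/6 mice, a strain that loses hearing with age, was compared between 1-month-old (young) and 12-month-old (old) animals, with 3 samples per age and the tissue of 3 mice mixed in each. No treatment is named for the mice, and the tissue holds many cell types, so fewer cells of a type and less RNA per cell cannot be told apart. Levels are given as FPKM, fragments per kilobase of transcript, scaled to the mapped fragments of a sample, summed over the transcripts of a gene. As FPKM is per length, levels of different genes can be set side by side, but only roughly where transcripts are short. Members with short main transcripts, such as Cox8b (360 nt), Atp5mpl (366 nt), Cox7a1 (393 nt), Atp5e (421 nt) and Uqcr11 (445 nt), have uncertain levels. Rankings and sums that include them are uncertain too.

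The summed FPKM per sample ranged from 576487 to 601724, and the depth estimated from the steps between low values was 12480000 to 15660000 fragments. Of the 48 genes, 44 reached an average of 0.1 FPKM and entered the limma test of 19649 genes, whose p-values were adjusted together (Benjamini-Hochberg). The 4 genes below this level were Cox6a2, Cox7b2, Cox8c and the second Atp5o record. Fragments were estimated for the main transcript alone, in tested members whose main transcript has at least 500 nt. The estimate was 683 to 22873 per sample, other than for Sdhc (194 to 342), Atp5s (106 to 151), Cox4i2 (15.2 to 20.0) and Cox6b2 (1.6 to 11.5). Other transcripts of a gene add to its level and are not in these numbers. In Sdhc a second transcript, of 3171 nt, was at 33.1 to 38.3 FPKM, against 29.8 to 40.8 for the main one. For 12 of the 44 genes, part of the main transcript also occurs, as stretches of 100 bases, in other annotated genes such as processed pseudogenes, so reads could have been divided between them. The share was largest for Atp5g2 (86.4%), Atp5l (61.3%), Atp5g1 (57.3%), Cox7c (44.4%) and Atp5h (32.7%), and these levels are uncertain. The gene that shares sequence with Atp5h has FPKM values of its own here, and those that share with the other named genes have none. How reads were divided was not tested. The other 32 share no such stretch with another gene.

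The paralog pairs on which the tissue question turns are different enough in sequence to be told apart by reads. The coding sequences of Cox7a1 (heart and muscle form) and Cox7a2 (the form of most other tissues), and of Cox8b and Cox8a, which stand in the same relation, are shown from the GENCODE M21 transcripts without the stop codon. Capitals mark bases that equal the aligned base of the partner.
Cox7a1: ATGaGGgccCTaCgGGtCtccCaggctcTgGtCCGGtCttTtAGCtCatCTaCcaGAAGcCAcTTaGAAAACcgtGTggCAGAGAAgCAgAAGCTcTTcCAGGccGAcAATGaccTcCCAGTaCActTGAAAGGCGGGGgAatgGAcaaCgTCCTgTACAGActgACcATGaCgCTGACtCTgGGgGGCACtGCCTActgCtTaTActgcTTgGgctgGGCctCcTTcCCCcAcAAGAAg
Cox7a2: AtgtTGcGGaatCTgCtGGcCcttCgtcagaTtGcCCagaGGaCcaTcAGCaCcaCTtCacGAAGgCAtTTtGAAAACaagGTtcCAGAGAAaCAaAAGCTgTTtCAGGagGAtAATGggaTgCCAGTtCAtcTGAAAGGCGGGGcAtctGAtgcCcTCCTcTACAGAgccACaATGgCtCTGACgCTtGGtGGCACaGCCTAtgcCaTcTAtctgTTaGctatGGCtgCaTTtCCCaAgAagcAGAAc
Cox8b: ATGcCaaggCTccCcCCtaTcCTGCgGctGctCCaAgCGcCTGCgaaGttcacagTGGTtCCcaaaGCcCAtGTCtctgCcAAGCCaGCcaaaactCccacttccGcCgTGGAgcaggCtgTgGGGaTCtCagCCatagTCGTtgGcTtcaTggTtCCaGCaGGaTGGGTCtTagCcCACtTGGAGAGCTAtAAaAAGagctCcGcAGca
Cox8a: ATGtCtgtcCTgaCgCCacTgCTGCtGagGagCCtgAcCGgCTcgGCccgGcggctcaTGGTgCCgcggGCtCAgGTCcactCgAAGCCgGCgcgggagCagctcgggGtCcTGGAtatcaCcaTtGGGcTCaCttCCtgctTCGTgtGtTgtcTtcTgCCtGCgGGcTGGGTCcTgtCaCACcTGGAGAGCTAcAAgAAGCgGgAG
Cox7a1 and Cox7a2 were identical at 150 of 240 aligned bases (62.5%), and their longest identical run was 12 bases. Cox8b and Cox8a were identical at 108 of 204 aligned bases (52.9%), with a longest run of 10 bases. Both runs are far shorter than the stretches of 100 bases with which shared sequence was sought.

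The subunit genes were among the most abundant in the cochlea. Of the 48, 35 were among the 500 genes with the highest mean FPKM. Together they made up 3.10% of the summed FPKM in young and 2.88% in old mice. Their sum was 18415, 17908 and 17536 FPKM in the young samples and 17103, 17067 and 17398 in the old ones, so the highest old sample lay below the lowest young one. Complex V gave the largest sum, 7728 ± 318 FPKM in young and 7416 ± 23.0 in old mice (SD, n = 3 each). Complex IV followed with 6651 ± 173 and 6423 ± 168, complex III with 3084 ± 188 and 2860 ± 85.8, and complex II with 490 ± 12.7 and 490 ± 13.8. The sums rise with the number of genes in a complex and do not measure the amount of complex.

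**Figure D1:**
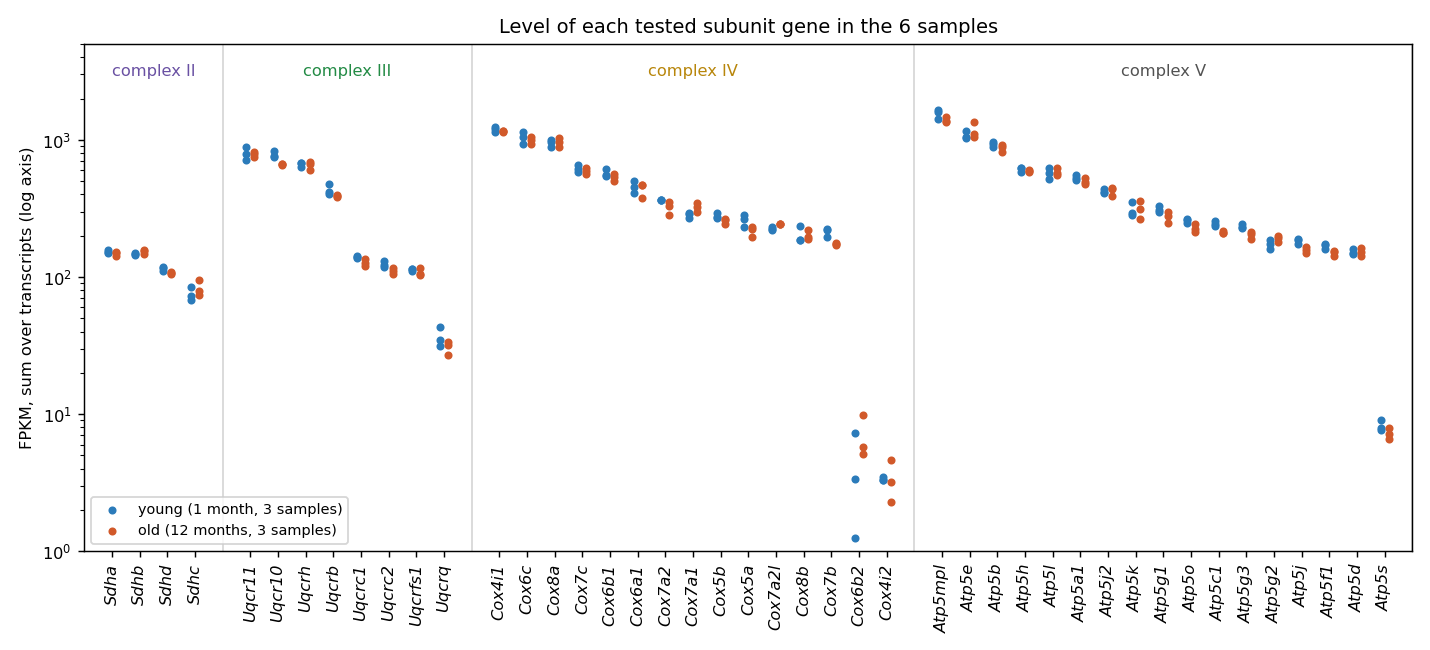
FPKM of each of the 44 tested subunit genes (log axis) in 3 young (blue) and 3 old (orange) samples, ordered by mean within each complex. Most genes lie between 100 and 1659 FPKM in both groups, and the points at the bottom are Uqcrq, Cox4i2, Cox6b2 and Atp5s.

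The comparison of old with young mice asked whether these genes changed with age. Changes were small: 43 of 44 lay within 0.3 of 0 on the log2 scale, against 73.5% of genes that averaged 10 FPKM or more, and the exception was the low gene Cox6b2. One gene, Cox7b, passed the threshold of an adjusted p of 0.05 as lower in old mice, and 0 were higher. This is 1 of 44 lower (2.27%), where 3.68% of all genes tested were lower and 5.41% higher (4.88% lower among genes with at least 10 FPKM). At an unadjusted p below 0.05, 8 members were lower and 1 was higher, against 13.0% and 14.5% of all genes. The direction leaned downward: 32 of 44 log2 changes were below 0 (72.7%, against 49.1% of all genes), and the median was -0.06, against 0.01 over all genes tested. In 14 of 44 members (31.8%) every old sample lay below every young one, against 16.0% of all genes and 18.6% of genes with at least 10 FPKM. In 2 members (4.55%) every old sample lay above, against 17.5% and 21.9%. The downward split depended on scaling in size: after quantile normalization 38 of 44 changes were below 0, the median was -0.22 (-0.02 over all genes), and 12 of 44 members passed as lower and 0 as higher, where 786 of the 19649 genes passed as lower.

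**Figure D2:**
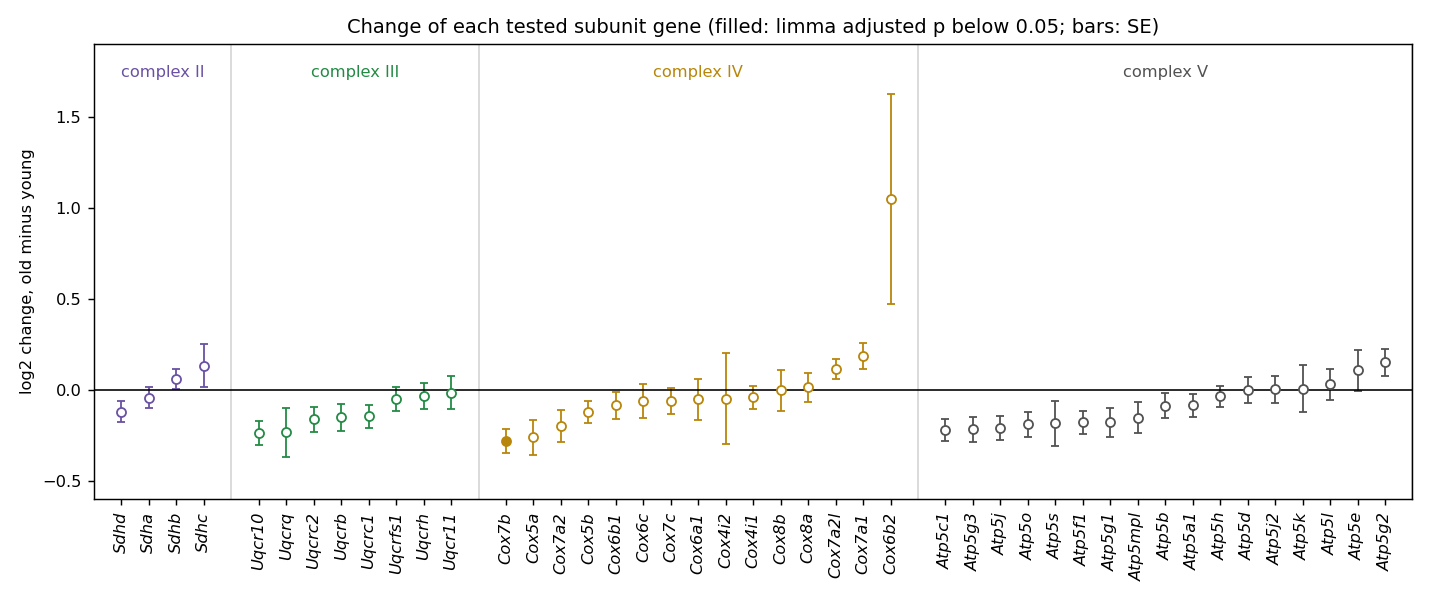
Log2 change (old minus young, points) with its SE (bars) for the 44 tested genes, by complex and ordered by size, where a filled point has a limma adjusted p below 0.05. Cox7b alone is filled, all 8 genes of complex III lie below 0, and Cox6b2 has the widest bar.

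The samples did not contribute equally to these differences. Among the 44 genes the highest value fell in young 1 for 13 genes and in young 2 for 13, but in young 3 for 3. The lowest fell in old 1 for 16 and in old 2 for 12, but in old 3 for 3. Young 3 and old 3 thus lay nearest to the middle, with median deviations from the 6-sample mean of 0.01 and -0.02 on the log2 scale, against 0.07 and 0.05 in young 1 and 2 and -0.05 and -0.06 in old 1 and 2.

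Complex II had like sums at both ages. Its 4 subunits had a median log2 change of 0.01, and none passed the threshold. Sdha, the flavoprotein that oxidises succinate, was at 151, 158 and 149 FPKM in young and 149, 143 and 152 in old samples. Sdhb, the iron-sulfur subunit, was at 147, 150 and 144 against 157, 155 and 148, with a log2 change of 0.06 (95% interval -0.07 to 0.19) that turned to -0.04 after quantile normalization. These catalytic subunits had nearly equal levels, and their groups overlapped. Sdhc, a membrane anchor, was lower and more variable at 84.3, 67.7 and 73.2 against 95.0, 78.8 and 73.5 FPKM. Much of this spread came from a transcript of 298 nt, at 16.0, 0.0 and 0.00337 against 26.9, 2.61 and 0.0 FPKM. Its length is close to the 280 to 300 nt by which lengths were reduced in the depth estimate, so its FPKM is uncertain. Sdhd, the other anchor, was at 119, 116 and 110 in young and 105, 106 and 108 in old samples. Its groups did not overlap, but the log2 change of -0.12 (SE 0.06) had a limma adjusted p of 0.232.

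Complex III leaned downward throughout: all 8 changes were below 0, with a median of -0.15, and in 4 of 8 every old sample was lower, against 16.0% of all genes and 18.6% of those with at least 10 FPKM. None passed the threshold. Uqcr10, a small membrane subunit, came nearest, at 833, 747 and 757 FPKM in young and 650, 661 and 669 in old samples. Every old sample was lower, by 15.2% on average (log2 change -0.24, SE 0.07, limma adjusted p = 0.0659). The core proteins Uqcrc1 and Uqcrc2, which face the matrix, also had groups that did not overlap. Uqcrc1 was at 140, 143 and 138 against 120, 126 and 136 FPKM (log2 change -0.15, adjusted p = 0.201 by limma). Uqcrc2 was at 130, 122 and 118 against 110, 105 and 116 (log2 change -0.16, adjusted p = 0.183 by limma). The fourth was Uqcrb, a subunit that contacts cytochrome b, at 475, 403 and 419 against 389, 381 and 395 FPKM, part of whose transcript (15.8%) is shared with other genes.

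The other subunits of complex III overlapped between ages. Uqcr11 had the highest mean FPKM of the complex, at 882, 708 and 794 in young and 810, 750 and 794 in old samples. Its change of -0.01 became 0.06 without young 1 and 0.02 without old 2. Uqcrh, the hinge protein beside cytochrome c1, ranged from 603 to 686 FPKM and Uqcrfs1, the Rieske iron-sulfur protein, from 104 to 117. Uqcrq, a ubiquinone-binding subunit, stood apart by its level: it was listed at 43.0, 31.4 and 34.6 against 27.0, 33.6 and 31.7 FPKM, below every other member of the complex. Its main transcript of 405 nt is close in length to those of Uqcr10 (434 nt) and Uqcr11 (445 nt), and shares no 100-base stretch with other genes.

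Complex IV held the only called gene and both members whose old samples were all higher. These were 2 of 15 tested genes (13.3%, against 17.5% of all genes and 21.9% of those with at least 10 FPKM). In 4 of 15 every old sample was lower (26.7%, against 16.0% and 18.6%). Of its 15 tested genes 11 changes were below 0, with a median of -0.05. Cox7b (chrX:106015700-106022450, plus strand, GRCm38), a small membrane subunit, was at 222, 219 and 196 FPKM in young and 174, 172 and 178 in old samples. The old samples lay close together and below every young one, a fall of 17.6% (log2 change -0.28, SE 0.07, 95% interval -0.44 to -0.12, limma adjusted p = 0.0441). The call was close to the threshold. The adjusted p by limma rose to 0.116 without young 1, 0.136 without young 2, 0.120 without old 1, 0.157 without old 2 and 0.107 without old 3, and was 0.0303 without young 3. It was 0.0621 with no filter, 0.139 with no variance trend and 0.0519 for the most abundant transcript alone, with log2 changes from -0.25 to -0.36 over all alternatives.

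Cox5a and Cox5b, which face the matrix, were also lower in every old sample without passing the threshold. Cox5a was at 264, 283 and 233 FPKM in young and 196, 225 and 230 in old samples (log2 change -0.26, limma adjusted p = 0.131). Cox5b was at 276, 291 and 269 against 259, 245 and 264 (log2 change -0.12, limma adjusted p = 0.254). The most abundant gene of the complex, Cox4i1, was at 1143, 1233 and 1203 against 1169, 1148 and 1161 FPKM, and its groups overlapped. So did those of Cox6c (925 to 1137 FPKM) and Cox7c (562 to 653 FPKM), both small structural subunits.

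The paralogs of complex IV asked which tissue forms the cochlea uses. Of the muscle forms, Cox7a1 and Cox8b had high FPKM and Cox6a2 did not. Cox7a1 made up 32.4% ± 1.10 of the summed FPKM of Cox7a1, Cox7a2 and Cox7a2l in young mice and 36.4% ± 2.63 in old (SD, n = 3 each). Cox8b made up 17.6% ± 2.03 and 17.4% ± 1.62 of the COX8 sum. The main transcripts of Cox7a1 (393 nt) and Cox8b (360 nt) are shorter than those of Cox7a2 (659 nt) and Cox8a (550 nt). The size of these shares is therefore uncertain. Cox6a2 was listed at 0 in all 3 young samples and at 0, 0.16 and 0.19 FPKM in the old ones, while its partner Cox6a1 was at 450, 410 and 501 against 377, 472 and 468.

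Genes of muscle were looked at beside these forms, and their part in the levels of Cox7a1 and Cox8b was not tested. Of 13 skeletal muscle genes 12 were tested, and 10 of these had log2 changes above 0. Acta1 and Ckm, the actin and creatine kinase of skeletal muscle, were at no more than 2.91 and 1.28 FPKM in any sample, and the fast myosins Myh1, Myh2 and Myh4 at no more than 0.942. Mylpf, a fast myosin light chain, was higher at 0.831, 1.22 and 0.222 against 7.73, 2.67 and 2.05 FPKM (log2 change 2.29, limma adjusted p = 0.0689), and Eno3, the muscle enolase, was at 7.98 to 10.5 in young and at least 11.8 in old samples (log2 change 0.51, limma adjusted p = 0.0685). In both the groups did not overlap. The troponins Tnni2 and Tnnt3 reached 4.72 and 3.45 FPKM in old 1. Old 1 held the highest value of 11 of the 13 genes, and among old samples it was the lowest for Cox7a1 and the middle one for Cox8b. The summed level of the list was 266 to 380 FPKM in young and 189 to 214 in old samples, most of it from Pvalb, which hair cells and neurons also express. Pvalb fell (log2 change -0.89, limma adjusted p = 0.0207), the only skeletal muscle gene called. Slow and cardiac muscle genes summed to 5.03 to 7.32 FPKM in young and 17.4 to 20.2 in old samples. Of these genes Tnnt2 rose from a mean of 2.24 to 12.5 FPKM (log2 change 2.46, limma adjusted p = 0.00528). Myh6 and Myh7, the cardiac and slow myosins, were at no more than 0.125 FPKM. Cox7a1 and Cox8b are also known from brown fat, where the uncoupling protein Ucp1 defines the cell, and Ucp1 was at no more than 0.559 FPKM, while Cidea was at 5.67 to 8.95. The brown adipocyte list of 5 genes summed to 16.6 to 21.0 FPKM in young and 16.1 to 18.3 in old samples, with none of 4 tested genes called.

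The COX7A forms were compared by their own levels and by their ratios. Cox7a1 was at 287, 269 and 293 FPKM in young and 298, 324 and 346 in old samples, and all old samples were higher (log2 change 0.19, SE 0.07, limma adjusted p = 0.154). Cox7a2 was at 366, 366 and 367 against 353, 281 and 330, and all old samples were lower (log2 change -0.20, SE 0.09, limma adjusted p = 0.202). Neither gene passed the threshold alone. The ratio of Cox7a1 to Cox7a2, which does not depend on a single scaling factor per sample, was 0.783, 0.737 and 0.800 in young and 0.845, 1.15 and 1.05 in old samples. The ratios did not overlap, with a log2 difference of 0.38 and an exact two-sided permutation p of 0.1, the smallest that 3 samples against 3 allow, or 0.2 adjusted over the 8 pairs compared. The main transcript of Cox7a1 is 393 nt long, and with transcripts under 400 nt left out the difference was 1.02, since only a minor Cox7a1 transcript then remained.

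Cox7a2l, a related gene, was at 221, 230 and 223 FPKM in young and 242, 242 and 245 in old samples. All old samples were higher, but the log2 change of 0.12 (SE 0.05) had a limma adjusted p of 0.206, and 11.7% of its transcript is shared with another gene. Its ratio to Cox7a2 was 0.603, 0.628 and 0.608 against 0.685, 0.862 and 0.744, a log2 difference of 0.31 with the same exact permutation p of 0.1 and adjusted value of 0.2. The ratio shares its denominator with that of Cox7a1, so the pair of results is not independent.

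In COX8 the groups of both forms overlapped. Cox8b was at 185, 187 and 237 FPKM in young and 197, 220 and 188 in old samples, with a log2 change of -0.0013 and a 95% interval of -0.26 to 0.26. Cox8a was at 990, 893 and 964 against 888, 967 and 1023, with a change of 0.01 (95% interval -0.17 to 0.20) that turned to -0.07 after quantile normalization. The ratio of Cox8b to Cox8a was 0.186 to 0.246 in young and 0.184 to 0.227 in old samples, with a log2 difference of -0.02 (exact permutation p = 0.9). These intervals leave room for changes of the size seen in Cox7a1.

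The remaining complex IV paralogs were nearly or wholly absent from the table. Cox4i2, the form of lung and of low oxygen, was at 3.45, 3.30 and 3.31 FPKM in young and 4.59, 2.29 and 3.22 in old samples, or 0.281% and 0.289% of the COX4 sum. Cox6b2, a testis form, was at 7.28, 1.25 and 3.38 against 5.78, 5.13 and 9.87, and its change of 1.05 had a 95% interval of -0.30 to 2.39 that spans 0. It made up 0.673% and 1.27% of the COX6B sum. Cox7b2 and Cox8c, also testis forms, were listed at 0 in all 6 samples. The 8 genes of male germ cells, among them the protamines, summed to 0 to 0.185 FPKM in young and 0 to 0.520 in old samples.

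**Figure D3:**
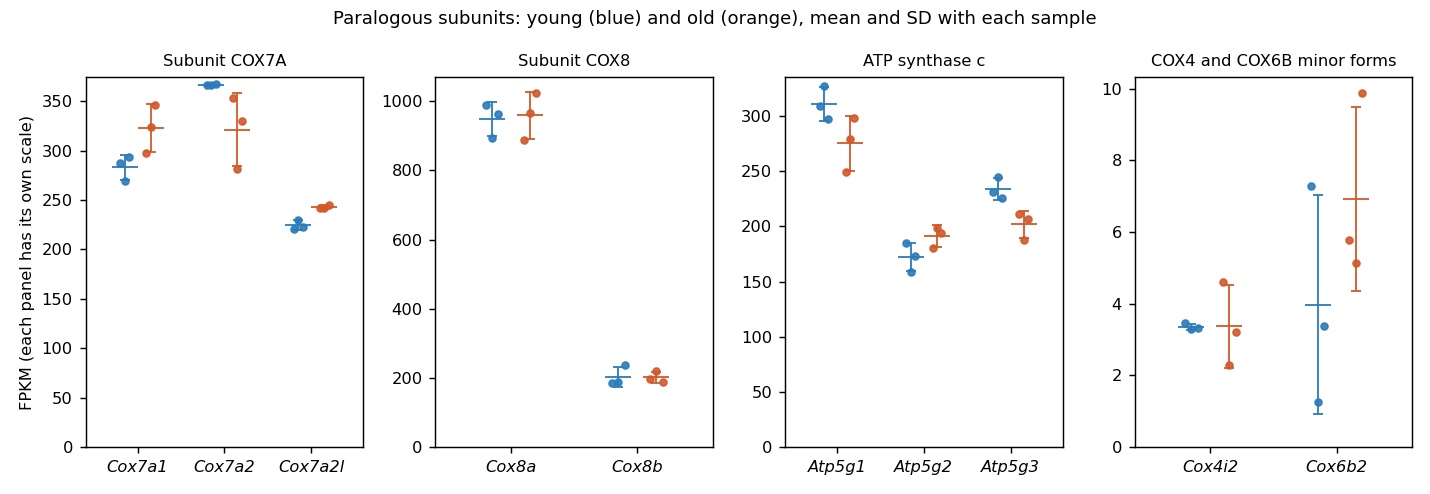
FPKM of paralogous subunits in each young (blue) and old (orange) sample, with mean and SD; each panel has its own axis from 0. Cox7a1 and Cox7a2l lie higher and Cox7a2 lower in old samples without overlap, while Cox8a and Cox8b overlap.

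In complex V all old samples were lower for 5 of 17 tested genes (29.4%, against 16.0% of all genes and 18.6% of those with at least 10 FPKM). The median log2 change was -0.09, and none passed the threshold. Atp5c1, the gamma subunit that turns inside the catalytic head, was at 242, 257 and 237 FPKM in young and 215, 209 and 208 in old samples (log2 change -0.22, SE 0.06, limma adjusted p = 0.0582). Atp5j, coupling factor F6 of the outer stalk, was at 185, 188 and 173 against 165, 149 and 158 (log2 change -0.21, SE 0.07, limma adjusted p = 0.0885). Atp5f1, subunit b of the outer stalk, was at 175, 171 and 161 against 154, 142 and 151 (log2 change -0.18, limma adjusted p = 0.119). Each of these genes fell short of the threshold although the groups were fully apart. Atp5o, the subunit that joins the outer stalk to the head, was at 266, 247 and 261 against 214, 224 and 242 FPKM (log2 change -0.19, limma adjusted p = 0.123), and shares 21.2% of its transcript with other genes. The second Atp5o record was at or near 0 in all samples.

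Other subunits of complex V overlapped between ages. Atp5a1 (478 to 555 FPKM) and Atp5b (821 to 971 FPKM), the alpha and beta chains of the catalytic head, had log2 changes of -0.09 and -0.09 (95% intervals -0.24 to 0.07 and -0.25 to 0.08). Atp5d, the delta subunit of the central stalk, had a change of 0.0004 (95% interval -0.17 to 0.17). Atp5e, the epsilon subunit, was at 1044, 1159 and 1024 against 1357, 1040 and 1097 FPKM, the high value being old 1. Atp5mpl, a small proteolipid with a short main transcript of 366 nt, had the highest FPKM of all members. It was at 1589, 1659 and 1408 against 1345, 1470 and 1367 (log2 change -0.15, limma adjusted p = 0.285). The membrane subunits Atp5j2, Atp5k and Atp5l and the outer stalk subunit Atp5h had changes from -0.03 to 0.03. Atp5s, the lowest tested gene of the group, was at 6.57 to 9.11 FPKM.

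The c ring is encoded by Atp5g1, Atp5g2 and Atp5g3, whose mature proteins are identical and whose import sequences differ. Atp5g1 was at 309, 327 and 297 FPKM in young and 249, 279 and 298 in old samples. Atp5g2 was at 185, 159 and 173 against 180, 199 and 194, and Atp5g3 was at 231, 245 and 226 against 211, 188 and 207. Only the groups of Atp5g3 did not overlap (log2 change -0.21, limma adjusted p = 0.0945). The share of Atp5g2 in their sum was 24.0% ± 2.00 in young and 28.6% ± 1.12 in old mice. The ratio of Atp5g2 to Atp5g3 was 0.800, 0.649 and 0.764 against 0.855, 1.06 and 0.938, with a log2 difference of 0.37, and that of Atp5g1 to Atp5g2 differed by -0.33, each with an exact permutation p of 0.1 (0.2 adjusted over 8 pairs). Both ratios involve Atp5g2, most of whose transcript is shared with other annotated genes.

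The promoters of the members were searched for motifs of known activators. For 36 members a promoter was found in the RefSeq table for GRCm38.p6, and the 250 bases before each start were searched on both strands. The letters GCGCA and GCGC with any 1 base between them, bound by NRF1, a known activator of respiratory genes, were in 7 of 36 members (19.4%) and in 4.23% of 27025 genes. CCGGAAG, an ETS family site, was in 9 (25.0%) against 7.83%. AAGATGGCG, a YY1 site, was in 1 (2.78%) against 0.71%, and CAAGGTCA, bound by estrogen-related receptors, in 2 (5.56%) against 1.51%. CAGCTG, an E-box of the kind bound in muscle, was in 2 (5.56%), Atp5b and Cox8b, against 14.7%. None of the 5 motifs contains another. A match is a description of letters and not of binding. The promoters of Cox7b and Atp5c1, the members with the smallest p, are shown with the NRF1 letters in capitals; Cox7b (chrX:106015450-106015699, plus strand) held none of the 5 motifs, and Atp5c1 (chr2:10080433-10080682, minus strand) held 1 NRF1 match. A second RefSeq start of Atp5c1, whose window is chr2:10080511-10080760, held none of the motifs and is not shown.
Cox7b: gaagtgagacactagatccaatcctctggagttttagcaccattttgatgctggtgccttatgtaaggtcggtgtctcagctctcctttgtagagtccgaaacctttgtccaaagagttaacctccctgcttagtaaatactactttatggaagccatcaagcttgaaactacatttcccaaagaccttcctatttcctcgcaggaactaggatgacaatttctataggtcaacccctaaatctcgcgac
Atp5c1: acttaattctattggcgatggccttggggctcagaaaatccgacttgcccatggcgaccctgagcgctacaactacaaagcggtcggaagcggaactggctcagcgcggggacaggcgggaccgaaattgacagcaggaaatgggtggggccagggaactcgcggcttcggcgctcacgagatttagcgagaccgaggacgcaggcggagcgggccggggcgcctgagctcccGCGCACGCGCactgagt

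Partner genes of these complexes were taken as a list of 51, of which 49 were tested. One was higher and 2 were lower in old mice (5.41% and 3.68% of all genes). Cycs, cytochrome c, the carrier between complexes III and IV, fell: it was at 60.8, 61.7 and 57.7 FPKM in young and 43.9, 43.1 and 49.1 in old samples (log2 change -0.41, SE 0.07, limma adjusted p = 0.0251). Pet100, an assembly factor of complex IV, rose from 38.8, 33.5 and 39.0 to 55.7, 50.7 and 45.4 (log2 change 0.45, SE 0.10, limma adjusted p = 0.0394), and its transcript is only 363 nt long. Both genes had groups that were fully apart, but neither call was stable. With 1 sample left out the limma adjusted p of Cycs was 0.0394 without young 3, and 0.0608 without old 3, 0.0768 without young 1, 0.0876 without old 1, 0.0959 without young 2 and 0.110 without old 2, and it was 0.0854 with no variance trend. For Pet100 it was 0.0666 to 0.144 over all 6 samples left out in turn, 0.0628 with no filter, 0.0505 after quantile normalization, 0.106 with no variance trend, 0.105 for the most abundant transcript (log2 change 0.75) and 0.564 with transcripts of at least 400 nt (log2 change 0.13). Cyc1 and Ndufa4, subunits outside the symbol rule, had changes of -0.06 and -0.15 and were not called. The other assembly factors of complex IV (23 of 24 tested), complex III (6), complex V (5) and complex II (4) held no called gene, and the inhibitor Atpif1 was at 202 to 275 FPKM in young and 212 to 233 in old samples.

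Among the 6 mitochondrially encoded subunits 1 passed the threshold and 5 had log2 changes below 0. The called gene was mt-Atp8, a subunit of complex V whose transcript is 204 nt long, at 9278, 8624 and 8753 FPKM in young and 6258, 6807 and 6539 in old samples (log2 change -0.44, SE 0.09, limma adjusted p = 0.0286). mt-Co1, the catalytic core of complex IV, was at 6362, 5204 and 5763 against 4158, 4519 and 4458 (log2 change -0.40, limma adjusted p = 0.0514). mt-Cytb, the core of complex III, was at 612, 567 and 633 against 542, 444 and 419 (log2 change -0.38, limma adjusted p = 0.0663). In all 3 genes every old sample was lower, and the difference between nuclear and mitochondrial genes was not tested. The call of mt-Atp8 was lost after quantile normalization (log2 change -0.20, limma adjusted p = 0.236), with no filter (0.133), with no variance trend (0.0663) and with each sample left out (0.0729 to 0.135). The transcript is shorter than the 280 to 300 nt by which lengths were reduced in the depth estimate, so its FPKM is uncertain. mt-Co2, mt-Co3 and mt-Atp6 were listed at 1.44 to 4.24 FPKM only. mt-Atp6 and mt-Atp8 overlap on the mitochondrial genome, so reads of one can be counted for the other. How reads were divided among the mitochondrial transcripts was not tested, and the levels of all 6 are uncertain.

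**Figure D4:**
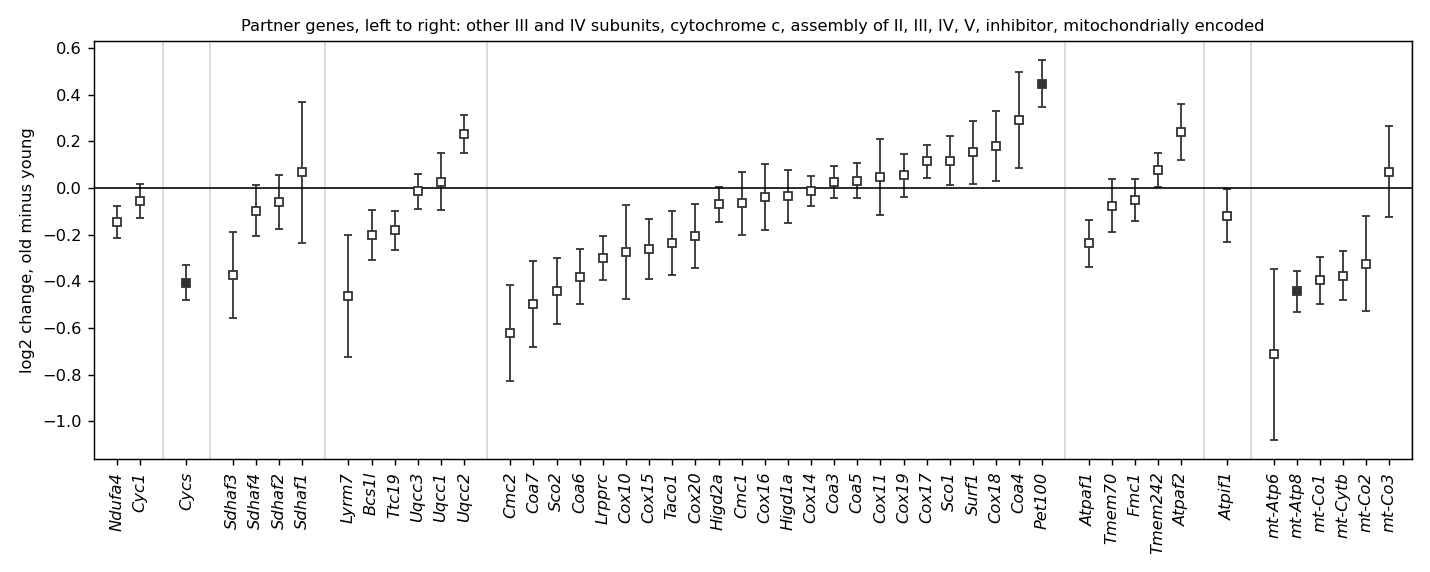
Log2 change (old minus young, squares) with its SE (bars) for 49 partner genes of complexes II to V, where filled squares have a limma adjusted p below 0.05. Cycs, Pet100 and mt-Atp8 are filled, and mt-Co1 and mt-Cytb lie at -0.40 and -0.38.

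Genes of several cochlear cell types moved between the same samples. Of 10 macrophage genes 8 rose, and their sum was 130 to 200 FPKM in young and 698 to 773 in old samples. Of 11 hair cell genes 10 were tested and 4 fell (Gfi1, Slc26a5, Ocm and Calb2), with list sums of 714 to 959 against 376 to 444 FPKM. Most of these sums came from Calb2 (means of 703 and 319 FPKM). Log2 changes were above 0 for 2 genes, Espn (0.44, every old sample higher, not called) and Myo7a (0.0018). Of 10 spiral ganglion neuron genes 5 fell (list sums of 526 to 1039 against 355 to 386 FPKM). In the same list Prph and Calb1 were higher in every old sample (log2 changes of 0.70 and 0.77), though not called. Of 5 Schwann cell genes 3 fell (list sums of 740 to 1174 against 634 to 660 FPKM). The neuron and Schwann cell sums were lowest, among young samples, in young 3, which also held the highest value of fewer subunit genes than young 1 or young 2. The bone and erythroid sums were instead lowest in young 2. Old 3, also near the middle for the subunit genes, had neuron and Schwann cell sums of 356 and 641 FPKM, near those of old 1 (355 and 634). The 10 genes of smooth muscle and pericytes summed to 154 to 208 against 147 to 172 FPKM. Among them Acta2 fell (12.0, 7.64 and 7.14 against 4.32, 4.84 and 3.52 FPKM). Of 8 bone genes, with sums of 83.0 to 334 against 63.7 to 84.0 FPKM, 2 fell. Alpl, also of the bone list, was higher in every old sample (log2 change 0.59), though not called. None of 7 stria vascularis genes (list sums of 824 to 1058 against 769 to 934 FPKM), 7 erythroid genes (1434 to 2954 against 1369 to 2254 FPKM) and 2 tested adipocyte genes (0.325 to 1.98 against 0.394 to 1.26 FPKM over 6 listed) was called. The part of these cell types in the changes of the subunit genes was not tested.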

How the data were processed

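RNA was sequenced from cochleae of C57BL/6 mice, 3 samples per age, assigned from their labels. The authors made directional libraries, aligned reads to GRCm38, and deposited FPKM per transcript from Cuffdiff 2.1.1; the submitters' processing notes name TopHat2 2.0.9 and CASAVA 1.8. The annotation release is not given in the sources used here. Of 55679 Ensembl transcripts, 55275 were matched to GENCODE M21 and summed per gene. limma 3.58.1 (R 4.3.3, lmFit and eBayes with trend) was run on log2(FPKM + 0.1) for genes with a mean of at least 0.1 FPKM, with age as the only term and Benjamini-Hochberg adjustment over all genes at a threshold of 0.05. Fold changes are on that scale and understate changes of low genes. Paralog ratios were compared by exact two-sided permutation tests for 8 chosen pairs, each with both forms above 0.1 FPKM. Cox7a1 against Cox7a2l was not among them. The code was tested on simulated data. Depth was estimated from steps between low FPKM values, of which 92.0% to 93.4% lay within 0.1 of a whole fragment (20% by chance); fragment numbers carry counting error only. Nothing in the labels says whether the pools came from separate litters, so p-values measure the spread between pools.

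The members and all lists of partner and marker genes were chosen with earlier results of these data known. Per-sample values are given for genes past the threshold, paralog pairs, complex II, the highest and lowest gene of each complex and the genes with the smallest p whose groups do not overlap; further members with groups that do not overlap, or that mark a subunit role, were named after their values were seen. Alternatives were other pseudocounts (0.01, 1), filters, scalings, transcript sets, no variance trend, sample weights, a replicate block, each sample left out, and an unadjusted p. Python 3.11.15, pandas 2.3.3, scipy 1.17.1 and Biopython 1.88 were used for tables, exact tests and sequence alignment.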

Additional observations from a re-analysis of the deposited data

How the results depend on the processing

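The number of members called higher was 0 under every alternative except an unadjusted p below 0.05, which gave 1. The number called lower (1) became 0 with no filter, with the most abundant transcript only and with no variance trend, 3 with a mean of at least 1 FPKM, 4 with sample weights, 12 after quantile normalization and 8 at an unadjusted p, and ranged from 0 to 1 with each sample left out. Calls over all genes (1063 higher, 724 lower) became 616 and 292 with no filter and 271 and 121 with no variance trend, and ranged from 1 to 718 and 0 to 675 with each sample left out, the lowest being without old 3 (1 higher, 0 lower), without old 1 (5 and 0), without old 2 (16 and 2) and without young 2 (23 and 11); without young 1 they were 301 and 68. Partner genes called higher (1) became 0 with no filter, quantile normalization, transcripts of at least 400 nt, the most abundant transcript, no variance trend and each sample left out (0 to 0), and 2 at an unadjusted p. Those called lower (2) became 1 with no filter, 0 with no variance trend, 4 with sample weights, 9 at an unadjusted p and 0 to 1 with a sample left out. Marker genes called higher (9) became 18 at an unadjusted p and 0 to 8 with a sample left out, and those called lower (16) became 6 with no filter, 3 with no variance trend, 30 at an unadjusted p and 0 to 15 with a sample left out. Quantile normalization moved the medians of complexes II, III, IV and V to -0.10, -0.24, -0.17 and -0.22. The median of complex II, near 0, was also below 0 with the most abundant transcript (-0.0192), without young 3 (-0.00683) and without old 1 (-0.0109). Quantile normalization also turned Cox8a to -0.0668 and Sdhb to -0.0425. Leaving out transcripts under 400 nt moved the Cox7a1 to Cox7a2 difference to 1.02. Changes near 0 turned sign with a sample left out: the range was -0.29 to 0.19 for Cox4i2, -0.12 to 0.0559 for Cox6a1, -0.0325 to 0.0694 for Cox8a, -0.0647 to 0.12 for Cox8b (0.0548 with sample weights) and -0.0948 to 0.0642 for Uqcr11. The differences between ages in the near-0 ratios of Cox8b to Cox8a, Cox4i2 to Cox4i1 and Atp5g1 to Atp5g3 also changed sign with a sample left out. The causes were not tested. The other alternatives moved counts of calls by at most 1.5 times. Named members that passed only under another filter, scaling or weighting are counted above.

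The replicate numbers are shared by both ages, but same-numbered samples did not deviate together over all genes (correlations of 0.02, -0.04 and 0.01). Over the tested members these correlations were -0.26, 0.37 and 0.28, and those of differently numbered samples ranged from -0.74 to 0.73. Whether same-numbered samples share a batch was not tested. With the number as a replicate block, 0 members, 0 higher and 0 lower partner genes, and 410 higher and 265 lower genes in all were called, and Cox7b had an adjusted p of 0.0970 by limma. Short transcripts limit depth estimates: none was made under 500 nt.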
